A study of Mus musculus with 8 samples.

Results

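The miR-204 and miR-211 family of the mouse was described by its 4 mature arms, mmu-miR-204-5p, mmu-miR-204-3p, mmu-miR-211-5p and mmu-miR-211-3p (the prefix is left out from here on), taken by name from the 1915 mature miRNA names listed for each library. All 4 names were present. Small RNA had been read in prefrontal cortex of 12-week-old C57BL/6 mice. The wild-type group had 4 libraries, numbered 1, 2, 3 and 4, and the Fkbp5 Knockout group had 4, numbered 1, 2, 4 and 5, with no treatment stated for either. Fkbp5 encodes an Hsp90 co-chaperone that dampens the glucocorticoid receptor's response to its hormone. The labels do not say how the allele was made, the animals' sex or whether a library is 1 animal, so a p-value measures only the spread between these samples. The assay does not read Fkbp5 messenger RNA, so the genotype labels could not be checked.

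A miRNA gene gives a hairpin RNA that is cut into a 5p and a 3p arm. Usually 1 arm, the guide, is kept in an Argonaute protein, where bases 2 to 8 (the seed) pair with messenger RNAs and lower their output, while the other arm, the passenger, is mostly degraded. miR-204 and miR-211 are paralogs carried in introns of 2 related cation channel genes, Trpm3 and Trpm1. miR-204 is known for high levels in choroid plexus and retinal pigment epithelium, and miR-211 for melanocytes and retina. Both are studied mainly for epithelial and pigment cell differentiation.

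The 4 mature sequences are shown because the seed and a single base in the 5p arms define how the members relate; capitals mark the seed (RefSeq, build GRCm38.p6, each on the plus strand).
miR-204-5p: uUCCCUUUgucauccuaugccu
miR-211-5p: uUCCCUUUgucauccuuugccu
miR-204-3p: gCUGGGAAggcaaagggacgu
miR-211-3p: gCAAGGACagcaaaggggggc
The 5p arms shared the seed UCCCUUU and 21 of 22 bases. They differed by A17U, with miR-204-5p written first and positions counted from 1 at the 5′ end. The 3p arms had different seeds, CUGGGAA and CAAGGAC. Set side by side without gaps, they were identical at 14 of 21 bases and differed by U3A, G4A, A8C, G9A, A18G, C19G and U21C. Among 1679 mouse mature names in the RefSeq table, 1 other carried the seed of the 5p arms. It was miR-7670-3p, listed at 0 in all 8 libraries. The seed of miR-204-3p also stands in miR-7684-5p, likewise listed at 0 throughout, and that of miR-211-3p in no other name.

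The hairpins are shown with both mature arms in capitals, to place each arm in its precursor.
Mir204: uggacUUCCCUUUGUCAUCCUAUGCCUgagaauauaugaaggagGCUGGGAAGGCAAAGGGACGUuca
Mir211: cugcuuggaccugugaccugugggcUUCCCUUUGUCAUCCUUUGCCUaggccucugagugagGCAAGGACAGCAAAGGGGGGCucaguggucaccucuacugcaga
The Mir204 hairpin lies at chr19:22750605-22750672 inside Trpm3, and the Mir211 hairpin at chr7:64205806-64205911 inside Trpm1, each on the strand of its host. In the GENCODE annotation of GRCm38, 18 of 24 Trpm3 transcripts span the first and 12 of 23 Trpm1 transcripts the second. No exon of either host overlaps its hairpin, so both are intronic. The shortest annotated intron around Mir204 runs from 22749846 to 22766633, and that around Mir211 from 64204594 to 64208275.

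Levels are given as rescaled values: the deposited value divided by a factor that brings all libraries to 1 common size. They have no fixed unit. The values of a library summed to between 16.2 and 21.6 times 1000000. The mature arms are 21 or 22 bases long, so length hardly bears on comparisons between them. Whether different sequences were captured and read equally well was not tested.

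miR-204-5p, the guide arm of miR-204, was by far the main form of the family in this tissue. In wild type its rescaled value was 11469 in replicate 1, 8971 in replicate 2, 7710 in replicate 3 and 7551 in replicate 4. In the knockout it was 7349 in replicate 1, 7969 in replicate 2, 7974 in replicate 4 and 7815 in replicate 5. Wild-type replicates 1 and 2 were above every knockout library, while wild-type replicates 3 and 4 lay inside the knockout range, so the groups overlapped. Its mean over 8 libraries, 8351, placed it 78th of the 1915 names. That corresponds to 444 per 1000000 of all values in a library. Its neighbours in mean level were miR-335-3p (8550) just above and miR-30a-3p (8338) just below, and all 3 overlapped in range.

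miR-211-5p carries the same seed but stood at 78.3 on average, 389th of the 1915 names. Its wild-type values were 64.1, 56.2, 186.5 and 40.2 in replicates 1, 2, 3 and 4. The knockout values were 51.8, 57.4, 43.9 and 126 in replicates 1, 2, 4 and 5. A single library was high in each genotype, wild-type replicate 3 and knockout replicate 5, and the other 6 lay between 40.2 and 64.1. The groups therefore overlapped over most of their range.

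Of the deposited values of the 2 guide arms, miR-204-5p held between 97.6% (wild-type replicate 3) and 99.5% (wild-type replicate 4). The ratio of miR-204-5p to miR-211-5p was 179, 160, 41.3 and 188 in wild-type replicates 1, 2, 3 and 4, and 142, 139, 181 and 61.9 in knockout replicates 1, 2, 4 and 5. It thus varied 4.54-fold between libraries and was lowest where miR-211-5p was high. Since the arms differ by 1 base, a read with an error there could be given to the other name. The mismatch setting is not given in the sources used here, and exchange of reads between the arms was not tested.

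The passenger arm miR-204-3p stood at 52.2 on average, 431st of the 1915 names. Its wild-type values were 53.9, 44.6, 49.0 and 62.0 in replicates 1, 2, 3 and 4. In the knockout they were 46.0, 68.7, 46.9 and 46.8 in replicates 1, 2, 4 and 5. Knockout replicate 2 was the highest of all 8 libraries, and the other 3 knockout libraries lay within the wild-type range. The passenger arm of miR-211 was at the edge of detection: miR-211-3p had a deposited value of 1 in knockout replicate 2 and was listed at 0 in the other 7 libraries. It did not pass the filter on low values, a value of 10 in at least 4 libraries, and no fold is given for it.

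**Figure D1:**
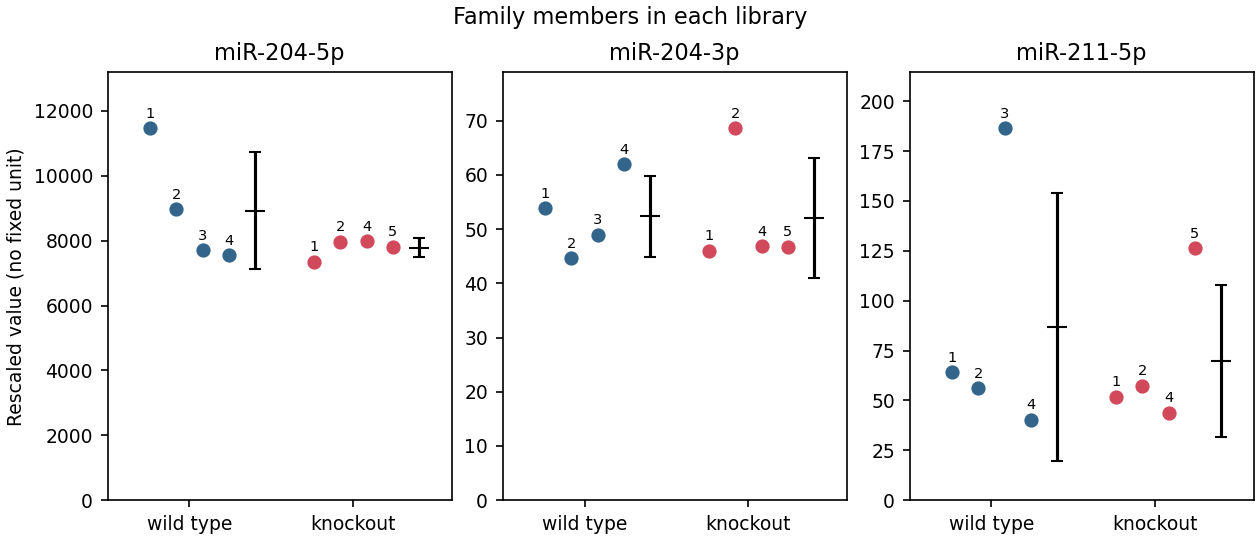
Rescaled values (no fixed unit, axes from 0) of miR-204-5p, miR-204-3p and miR-211-5p in each of 4 wild-type (blue) and 4 Fkbp5 knockout (red) libraries; numbers are replicates, and the black bars are the mean ± SD. miR-204-5p is highest in wild-type replicate 1 (11469), miR-204-3p in knockout replicate 2 (68.7), and miR-211-5p in wild-type replicate 3 (186.5) and knockout replicate 5 (126), with overlapping groups in all 3 panels.

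The comparison of genotypes asks whether family levels differ in cortex labelled as Fkbp5 knockout. No member passed the test: 3 of the 4 members could be tested, and 0 had an adjusted p under 0.05 by limma with Benjamini-Hochberg adjustment over 599 miRNAs. Across all 599 the share called was 0%, and 4.17% (25 miRNAs) had an unadjusted p under 0.05, among them 0 members. The 2 genotypes' values did not overlap for 2% of the 599 (12 miRNAs), again with 0 members. All 3 tested members had a lower mean log2 value in the knockout, as did 46.4% of the miRNAs tested, and that direction did not hold under every setting for miR-204-3p and miR-211-5p.

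The wild-type mean of miR-204-5p was 8925 ± 1811 and the knockout mean 7777 ± 295 (SD, n = 4 each). On the log2(value + 1) scale, which slightly understates changes of low miRNAs, its fold change was -0.18 ± 0.13 (SE), with an adjusted p of 0.999 by limma. The 95% interval, -0.47 to 0.12, corresponds to a level in the knockout between 0.720 and 1.08 times that of wild type. The estimate leaned on the highest library: without wild-type replicate 1 it was -0.047 ± 0.096. In tissue RNA of this kind, fewer cells that make a miRNA and less of it per cell cannot be told apart.

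For miR-211-5p the wild-type mean was 86.8 ± 67.2 and the knockout mean 69.8 ± 38.0 (SD, n = 4 each). Its log2 fold change was -0.18 ± 0.44, with an adjusted p of 0.999 by limma. The 95% interval ran from -1.15 to 0.80, or 0.451 to 1.74 times the wild-type level, so a 2-fold loss was not excluded. Moderation drew its variance toward that of other miRNAs. Its SD within genotypes, 0.82, was above the median of 0.29 at similar level, so the interval may be too narrow. The sign rested on 1 library, since without wild-type replicate 3 the log2 fold change was 0.28 ± 0.34. Without knockout replicate 5 it was -0.51 ± 0.42.

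The passenger arm miR-204-3p had a wild-type mean of 52.4 ± 7.44 and a knockout mean of 52.1 ± 11.1 (SD, n = 4 each). Its log2 fold change was -0.019 ± 0.20, with a 95% interval from -0.46 to 0.42 and an adjusted p of 0.999 by limma. With upper quartile scaling the sign turned, to 0.037. Over all 599 miRNAs the median log2 fold change was 0.012 and the median of its absolute size 0.11.

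**Figure D2:**
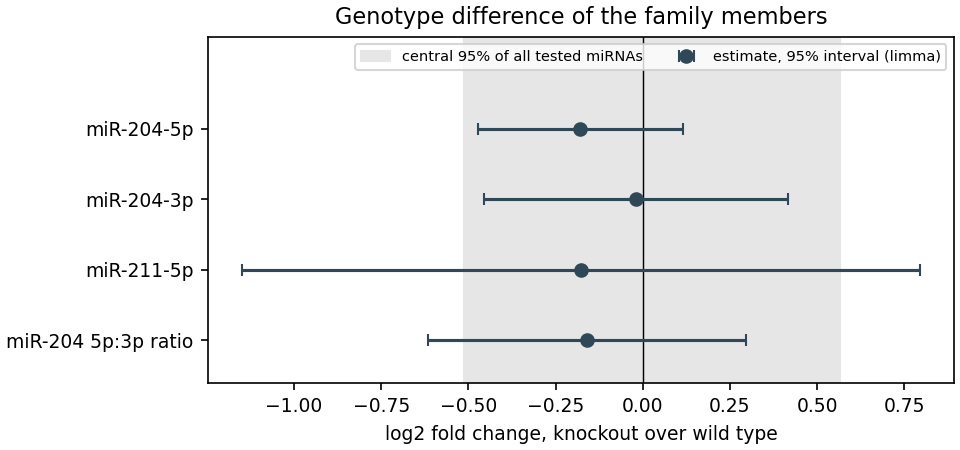
Log2 fold changes, knockout over wild type, of the 3 tested members and of the 5p to 3p ratio of miR-204 (points), with their 95% intervals from limma (bars); the grey band holds the central 95% of log2 fold changes of all 599 tested miRNAs, from -0.51 to 0.57. All 4 intervals include 0, and that of miR-211-5p is the widest, from -1.15 to 0.80.

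Arm choice in miR-204 was strongly to the 5p side in both genotypes. The ratio of the deposited values of miR-204-5p to miR-204-3p was 213, 201, 157 and 122 in wild-type replicates 1, 2, 3 and 4. It was 160, 116, 170 and 167 in knockout replicates 1, 2, 4 and 5. In every library the value of the guide was thus over 100 times that of the passenger. The lowest ratio was that of knockout replicate 2, where miR-204-3p was highest. With 0.5 added to each arm, the log2 ratio had a wild-type mean of 7.39 ± 0.37 and a knockout mean of 7.23 ± 0.26 (SD, n = 4 each).

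The ratio did not change detectably with genotype. Its log2 change was -0.16 ± 0.21 (SE), with a 95% interval from -0.62 to 0.30 and an adjusted p of 0.971 by limma over 141 hairpins. Across those hairpins the share called was 0%, and 2.13% (3 hairpins) had an unadjusted p under 0.05, miR-204 not among them. Hairpins were paired only where the 5p and 3p names match apart from the arm. Those with a locus number in an arm's name, such as let-7c and miR-128, were left out whatever their level. Among the 141 hairpins so paired, the arm ratio of miR-204 was the 15th largest of the 77 that favoured the 5p arm. The median of these hairpins held 10.3 times more of its major arm than of its minor arm, and miR-204 held 159 times more. miR-211 could not enter this test because miR-211-3p was below the mean of 20 asked of each arm. Its 5p arm had deposited values of 37 to 156 where the 3p arm had 0 or 1.

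**Figure D3:**
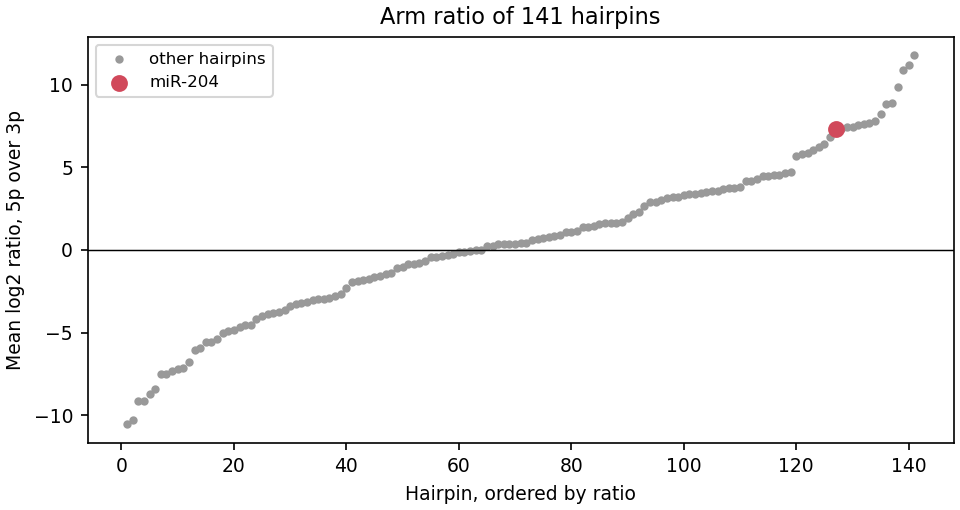
Mean log2 ratio, 5p arm over 3p arm, across 8 libraries for 141 hairpins, ordered from the most 3p-sided to the most 5p-sided (grey points). The hairpins are those with matching arm names whose arms each averaged 20 or more. miR-204 (red) is at 7.31, the 15th largest of the 77 hairpins above 0.

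Spread between libraries set the guide arms apart from each other. Within genotypes the SD of the log2 value of miR-204-5p was 0.20, against a median of 0.18 over the 65 miRNAs, itself included, whose mean level was within 2-fold of its own. For miR-211-5p the SD was 0.82, against a median of 0.29 over 134 miRNAs of similar level, and 97.8% of these had a lower SD. For miR-204-3p it was 0.24 against 0.31 over 129 miRNAs. These are descriptions of 4 libraries a group, with no test. The range from lowest to highest library was 1.56-fold for miR-204-5p, 1.54-fold for miR-204-3p and 4.64-fold for miR-211-5p.

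Of the miRNAs outside the family, those most like miR-204-5p over the 8 libraries were named by Pearson's r of log2 values, the 5 highest of 596. They were miR-488-5p (r = 0.950), miR-488-3p (0.909), miR-1a-3p (0.902), miR-3572-3p (0.894) and miR-380-5p (0.893). miR-488-5p and miR-488-3p are arms of 1 hairpin, and miR-1a-3p is abundant in striated muscle. Spearman's rank correlations over the 8 libraries were 0.881, 0.690, 0.667, 0.762 and 0.952 for the 5 in order. Wild-type replicates 1 and 2 were the libraries farthest from the median of miR-204-5p. Without them r fell to 0.499, 0.473, 0.258 and 0.317 for the first 4 and to 0.756 for miR-380-5p. Leaving out the farthest libraries narrows the range and can lower r by itself, so what the likeness rested on was not tested. Leaving out wild-type replicate 1 alone brought r to 0.484 for miR-380-5p, 0.406 for miR-3572-3p and 0.608 for miR-1a-3p. It stayed at 0.904 for miR-488-5p and 0.886 for miR-488-3p. As the highest of many, on libraries that share their scaling, they carry no p. Within the family, r with miR-204-5p was 0.0086 for miR-204-3p and -0.072 for miR-211-5p.

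The 5 most like miR-211-5p were miR-7220-3p (r = 0.810), miR-23b-3p (0.795), miR-182-5p (0.790), miR-3535 (0.782) and miR-345-3p (0.777). miR-182-5p belongs to the miR-183 cluster of sensory epithelia and retina. It was at 890, 1033, 1333 and 408 in wild-type replicates 1, 2, 3 and 4 and at 293, 401, 427 and 1688 in knockout replicates 1, 2, 4 and 5. Wild-type replicate 3 and knockout replicate 5 were thus its highest libraries, as they were for miR-211-5p. Without both, r was 0.789, 0.344, 0.543, 0.453 and 0.597 for the 5 in order. These 2 libraries were the farthest from the median of miR-211-5p, so leaving them out can lower r by itself.

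Because miR-204 is known for high levels in choroid plexus, miRNAs of that tissue, of cilia and of other epithelia were set beside the family. The miR-34b/c and miR-449 miRNAs act in multiciliated cells such as ependyma and choroid plexus. Of 9 listed arms 3 were tested, all from miR-34b/c, and 0 passed the threshold. Their median log2 fold change was 0.13, with wild-type and knockout means of 352 ± 49.4 and 385 ± 43.0 for miR-34b-3p (SD, n = 4 each; log2 fold change 0.13 ± 0.14). Leaving out wild-type replicate 3, knockout replicate 4 or knockout replicate 5 brought the median to 0.052, 0.054 or 0.051, and leaving out wild-type replicate 1 or 2 brought it to 0.21 or 0.20. For miR-34b-3p the value was 0.052 without wild-type replicate 3, 0.054 without knockout replicate 4 and 0.20 without wild-type replicate 2. miR-449b and miR-449c-3p were listed at 0 in all libraries, and miR-449a-5p averaged 4.55. The list's summed level ran from 481 to 778 in wild type and from 582 to 756 in the knockout.

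The miRNAs in introns of Htr2c, a serotonin receptor gene strongly expressed in choroid plexus and also in neurons, were likewise without a call. Of 10 listed arms 8 were tested, 7 with a higher and 1 with a lower mean log2 value in the knockout, and 0 passed (median log2 fold change 0.12). Over all 599 miRNAs tested, 46.4% had a lower mean log2 value. The listed arms share 1 host gene and include both arms of the same hairpins, so they are not independent. The most abundant, miR-1298-3p, had wild-type and knockout means of 332 ± 60.1 and 364 ± 38.9 (SD, n = 4 each; log2 fold change 0.15 ± 0.16). Its log2 fold change was 0.028 without wild-type replicate 3, 0.095 without knockout replicate 2 and 0.23 without wild-type replicate 1. Summed levels ran from 886 to 1379 in wild type and from 1057 to 1421 in the knockout, and 1 arm, miR-1912-5p, was listed at 0 throughout. The lowest library of both lists was wild-type replicate 3, a library in which miR-211-5p was high. In knockout replicate 5, where miR-211-5p was also high, the miR-34 and miR-449 list summed to 688 and the Htr2c list to 1402. Without wild-type replicate 3, the median of the Htr2c list was -0.016. With any other library left out that median ran from 0.043 (without knockout replicate 4) to 0.25 (without knockout replicate 1).

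The third list holds 5 arms of the miR-200 family, typical of epithelium. Its summed level was 528, 3713, 2061 and 655 in wild-type replicates 1, 2, 3 and 4, and 297, 295, 552 and 2125 in knockout replicates 1, 2, 4 and 5. Wild-type replicate 3 and knockout replicate 5, where miR-211-5p was high, were 2 of its 3 highest libraries. The highest, wild-type replicate 2, had miR-211-5p at 56.2, within the range of the other libraries. Of 4 tested arms all had a lower mean log2 value in the knockout and 0 passed the threshold (median log2 fold change -1.18). Over all 599 miRNAs tested, 46.4% had a lower mean log2 value. The 4 arms rose and fell largely together across libraries, so they are not independent. miR-200b-3p had wild-type and knockout means of 1023 ± 908 and 452 ± 458 (SD, n = 4 each; log2 fold change -1.18 ± 0.67). The part of epithelial tissue in the miR-211-5p values was not tested.

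**Figure D4:**
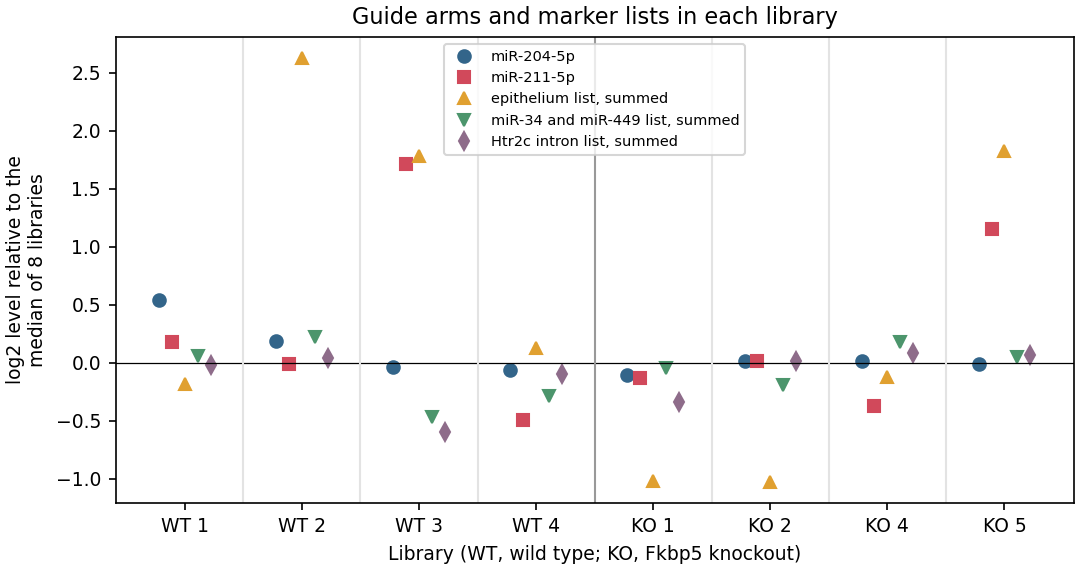
Log2 level relative to the median of 8 libraries for miR-204-5p, miR-211-5p and the summed rescaled values of 3 lists (miR-34 and miR-449 arms, Htr2c-hosted arms, and 5 miR-200 family arms for epithelium), by library. miR-211-5p and the epithelium list are both high in wild-type replicate 3 and knockout replicate 5, and in wild-type replicate 2 the epithelium list is at its highest (3713 summed) while miR-211-5p is at 56.2.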

How the data were processed

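Small RNA libraries from prefrontal cortex were made with a NEXTflex kit and sequenced in pairs, per the labels' protocols. The submitters' processing notes name cutadapt 1.11, Bowtie 1.1.2, HTSeq 0.6.1p1, edgeR and build mm10 (GRCm38), with no order or settings. The authors call the deposited values normalized counts, per the file headers. The deposited values were whole numbers with unequal totals, so each was handled as a score with no fixed unit; how the authors normalized them is not given in the sources used here, and whether they are raw counts could not be settled. No count model was run, and depth in reads is unknown. Values were rescaled by a trimmed mean of log ratios (30% of ratios and 5% of levels trimmed at each end). The 599 miRNAs tested reached 10 (at the median library's size) in 4 or more libraries, with a total of 15 or more. limma 3.58.1 in R 4.3.3 compared log2(value + 1) by genotype, with empirical Bayes moderation that allowed a mean-variance trend, and p-values were adjusted by Benjamini-Hochberg (threshold 0.05). Arm ratios, with 0.5 added to each arm, were fitted alike over the hairpins with matching arm names whose arms each averaged 20 or more. The procedure was tested on simulated data, with noise drawn separately for each miRNA or hairpin. Variation shared by the miRNAs of a library was not simulated, and the outcome is not given here. The named miRNAs are the members, the most abundant tested arm of each of 3 lists, the 5 most alike in pattern and the nearest in level, other miRNAs sharing the seed of miR-204-5p, and list arms listed at 0 or low. miR-182-5p was given in full, and miR-7684-5p and miR-154 were named, after their values were seen. Members and lists were chosen with earlier results of these data known. Sequences of all 4 members came from RefSeq. Alternatives were other scalings, filters and pseudocounts, a replicate block, and leaving out each library in turn.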

Additional observations from a re-analysis of the deposited data

Results flagged for a closer look

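In 14 groups of 4 libraries, rescaled values or their ratio were examined without taking log2. In 4 of these groups the gap of a library to the nearest other exceeded the 95% limit of Dixon's test. For normally distributed values chance gives about 1 in 20 groups, or 0.7. The test was not run on log2 values, on which high values stand less far apart, so no excess over chance can be read here. The groups are not independent. miR-211-5p was at 186.5 in wild-type replicate 3, with the other wild-type libraries at 40.2 to 64.1, and at 126 in knockout replicate 5, with the others at 43.9 to 57.4. In knockout replicate 5 miR-200b-3p was also apart, at 1132 against 174 to 322. miR-204-3p was at 68.7 in knockout replicate 2, with the other knockout libraries at 46.0 to 46.9, a library in which miR-204-5p (7969) was not apart.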

How the results depend on the processing

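miR-204-5p kept its sign in all 19 alternatives (-0.26 to -0.047 on the log2 scale; lowest adjusted p 0.764 by limma), and the arm ratio of miR-204 in all 14 (-0.32 to -0.033, the latter without knockout replicate 2). Some of these could not move the estimates: changing only the filter, the minimum asked of each arm or the mean-variance trend leaves them as they are. The replicate block gave the same estimates as its 6 libraries without it. miR-204-3p turned to 0.037 with upper quartile scaling and to 0.0044 in the 6 libraries numbered 1, 2 and 4, with or without a block, and ran from -0.16 to 0.058 with 1 library left out. miR-211-5p ran from -0.51 to 0.28 with 1 library left out. With a filter of 10 per 1000000, miR-204-3p and miR-211-5p were not tested. The labels do not say that replicate numbers pair libraries, and same-numbered libraries had correlations of 0.065, -0.038 and 0.13, with 0 of 3 closest to its own number. The replicate block gave 7 miRNAs past the threshold in place of 0 (46 unadjusted, against 41 in the same libraries without it) and 1 hairpin arm ratio, that of miR-154, in place of 0; no member was among them, and miR-200b-3p was (adjusted p 0.0155 by limma). In those 6 libraries the medians of the miR-34 and miR-449 list and of the Htr2c list were -0.082 and -0.053. Leaving out wild-type replicate 2 brought the miR-200 list's median to -0.64, and leaving out knockout replicate 5 brought it to -1.84. Without rescaling, r with miR-211-5p was 0.607 for miR-23b-3p and 0.602 for miR-345-3p, and that of miR-23b-3p was 0.60 with upper quartile scaling. Over the 6 libraries numbered 1, 2 and 4 it was 0.328 for miR-23b-3p, 0.530 for miR-182-5p, 0.451 for miR-3535 and 0.588 for miR-345-3p. The unadjusted count of 25 was 9 without rescaling (the cause was not tested), 51 with no filter (1330 tested), 14 at 10 per 1000000 (323 tested) and 40 without wild-type replicate 3. With 1 library left out the count past the threshold was 0. The median log2 fold change over all tested miRNAs shifted by 0.055 or less under other scalings.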
